A study of Onthophagus taurus with 15 samples.

Results

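The thoracic horn of large male pupae of the dung beetle Onthophagus taurus was compared with dorsal abdominal epithelium of the same animals on 5 of the 15 two-colour arrays of the series. The 5 arrays were taken by their titles, which pair thoracic horn samples A to E with abdomen samples A2 to E2, and every clone on them was used. The table held 3840 clones, with IDs that start with OtL in 1920 and with OtP in the other 1920, and 3725 of them had enough values for the test. The other 10 arrays set head horn or legs, 5 arrays each, against abdominal epithelium. They serve here to show which thoracic horn ratios differed from those of the other appendages. They were also part of the main fit, so they share in the spread and dye layout estimates behind the thoracic horn tests.

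Horns of Onthophagus beetles are outgrowths of the epidermis that have no counterpart in most insects. Large males of O. taurus carry a pair of long head horns into the adult stage. The pupa also forms a single horn on the thorax, and in this species it is resorbed before the adult emerges. Legs are jointed limbs that all insects share, and dorsal abdominal epithelium forms no outgrowth.

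All groups were large males from a laboratory colony, taken within 24 h of pupation. Thoracic horn, head horn, legs and abdominal epithelium were dissected, and each RNA sample pooled the tissue of 4 pupae. An array held 2 samples of the same pupae, and their RNA was copied by T7 transcription and then labelled, one in Cy3 and the other in Cy5. Arrays A, C and E of every tissue had the appendage in Cy3 and arrays B and D had it in Cy5, so dye layout and letter are tied to each other. Pooling hides variation between animals, and p-values measure the spread between pools and arrays. Less RNA of a kind per cell and fewer cells of a kind cannot be told apart in such dissected tissue.

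Each value is read as a log2 ratio, in which 1 is a 2-fold difference. A positive value is taken as higher in thoracic horn than in abdomen, which is the likely direction because titles and design name the appendage first. The sources used here state neither this direction nor the log base. If the direction were the opposite one, every sign below would turn and no total, size or adjusted p would change. The clones carry no gene names, and 0 of 3840 matched the 16956 genes of the gene table supplied with the data. The tissue labels could therefore not be checked against marker genes, and clones are described by ID. Several clones can come from one transcript, so a count of clones is not a count of genes.

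In limma's moderated test on all 15 arrays, with the dye layout as a term, thoracic horn and abdominal epithelium differed in 1298 of 3725 clones (34.8%, adjusted p under 0.05). Of these, 641 clones were higher in thoracic horn (17.2% of those tested) and 657 were lower (17.6%). Of the calls, 933 (71.9%) differed by less than 2-fold and 607 (46.8%) by less than 1.5-fold, and the smallest called ratio was 0.21 on the log2 scale. The median ratio was 0.55 among clones higher in thoracic horn and -0.71 among those lower.

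At 2-fold or more, 365 clones were called, which is 9.8% of those tested. Here the lower side held more clones, with 145 higher and 220 lower in thoracic horn, so that 60.3% of these calls were negative. The uneven split narrowed at larger sizes. At 4-fold or more there were 49 higher and 58 lower clones, and at 8-fold or more 17 higher and 18 lower clones. One clone, OtP001-H03, passed 16-fold, and it was lower in thoracic horn. The median standard error of a ratio was 0.15 and the median 95% interval reached 0.33 to either side. A further 69 clones had a fitted ratio of 2-fold or more and were not called, with a median standard error of 0.61, against 0.23 for the called clones of that size. With the 5 thoracic horn arrays fitted alone, limma called 827 clones, 368 higher and 459 lower, and 342 of them at 2-fold or more. With the array letter as a random block on all 15 arrays it called 1254 clones (33.7%), 362 of them at 2-fold or more.

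**Figure D1:**
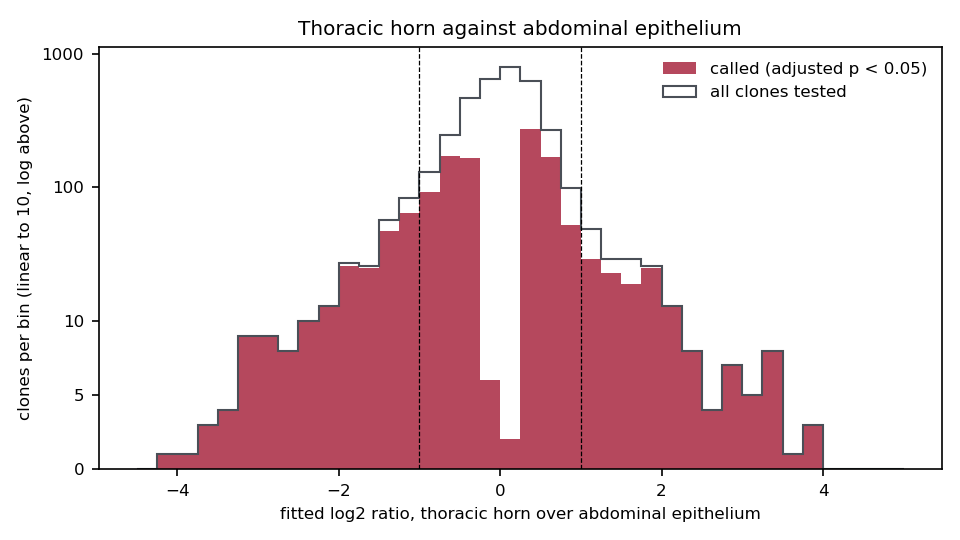
Fitted log2 ratios of thoracic horn over abdominal epithelium (x axis) in the 3725 clones tested, as clones per bin (y axis, linear to 10 and logarithmic above). Filled bars are called clones, the outline is all clones tested, and dashed lines mark 2-fold. The tails past 2-fold hold 145 called clones on the right and 220 on the left.

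The 10 highest and 10 lowest ratios were taken among called clones with the same sign on all 5 thoracic horn arrays. The 10 highest were between 9.96-fold and 15.8-fold above abdomen in the fit. OtL002-E05 had log2 ratios of 3.62, 4.23, 3.81, 4.41 and 3.42 on arrays A to E. It was the highest fitted clone at 3.98 ± 0.18 (SE), with an adjusted p of 1.75e-08 by limma, and its array values averaged 3.90 ± 0.41 (SD, n = 5). OtP011-E02 had 4.03, 3.82, 4.13, 3.55 and 3.54, a narrower spread of 0.27 (SD, n = 5). Its fit was 3.86 ± 0.29 (SE, limma adjusted p = 5.14e-07). No single array stood apart in either clone, but both Cy5 arrays (B and D) of OtL002-E05 lay above its Cy3 arrays. The layout term of OtL002-E05 was -0.86 (Cy3 minus Cy5, limma adjusted p = 0.0130).

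Several of the next clones of this group were less even. OtL014-H10 had 2.71, 4.49, 3.63, 4.48 and 2.40 on arrays A to E, with both Cy5 arrays (B and D) above the 3 Cy3 arrays. Its fit was 3.77 ± 0.50 (SE, limma adjusted p = 7.55e-05), and its layout term was -2.27 (Cy3 minus Cy5, limma adjusted p = 0.0161). OtP012-E12 had 4.02, 3.50, 3.14, 3.61 and 3.34, with no such split, and a fit of 3.62 ± 0.35 (SE, limma adjusted p = 4.20e-06). OtL005-B12 had 2.76, 4.80, 3.94, 3.22 and 2.10, highest on B and lowest on E. OtP007-G12, OtL009-F10, OtL017-F01 and OtL007-C10 were also highest on B and lowest on E, with fits of 3.46, 3.39, 3.39 and 3.37. OtL014-H05 ended the group at 3.32 and had the widest spread, 2.01, 4.91, 4.44, 3.35 and 0.72, so that its E array was the only value among these 50 under 2-fold. Of the 10 clones 7 had the prefix OtL, as did 92 of all 145 clones called at 2-fold or more higher.

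The 10 lowest clones were between 9.36-fold and 18.6-fold below abdomen, and every one of their 50 values lay past 2-fold. OtP001-H03 had -3.37, -4.11, -5.71, -4.23 and -3.15 on arrays A to E, with C the lowest. Its fit was -4.22 ± 0.39 (SE, limma adjusted p = 4.73e-06). OtL011-A04 had -3.16, -4.59, -4.29, -3.93 and -3.50, for a fit of -3.94 ± 0.26 (SE, limma adjusted p = 2.33e-07). The others were OtL006-A08 at -3.67, OtL004-F05 at -3.60, OtL002-A12 at -3.49, OtL015-C02 at -3.41, OtL010-A03 at -3.37, OtL005-F06 at -3.33, OtL013-B11 at -3.24 and OtL001-F08 at -3.23. The spread over arrays in these 10 clones ran from 0.33 to 1.01 (SD, n = 5). In the 10 highest clones it ran from 0.27 to 1.73. Of the 10 lowest clones 9 had the prefix OtL, against 119 of all 220 clones called at 2-fold or more lower.

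**Figure D2:**
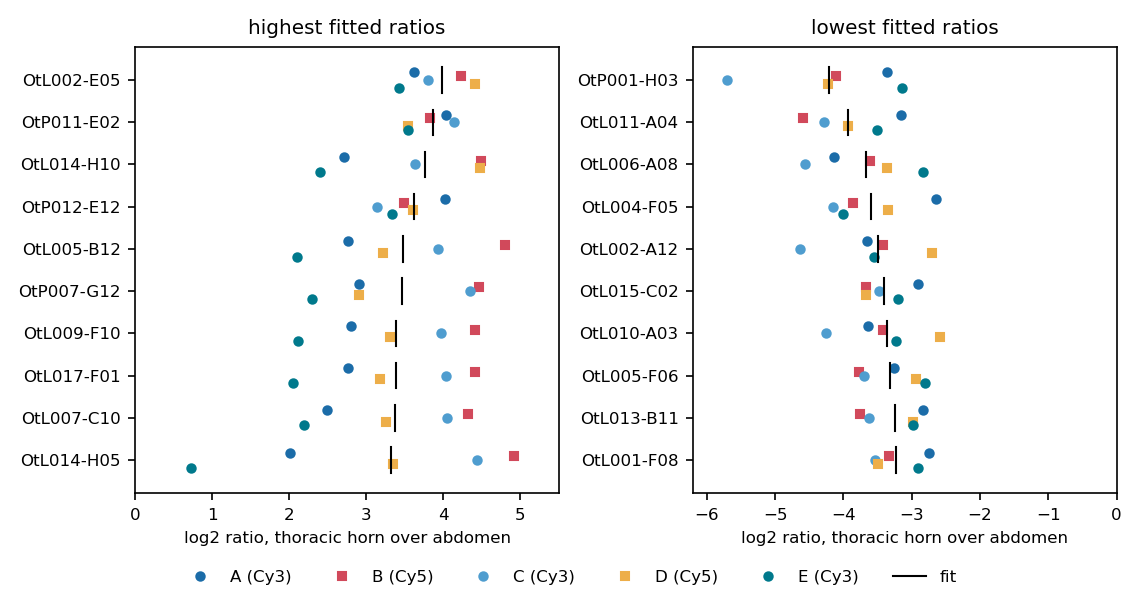
Log2 ratio of thoracic horn over abdominal epithelium on each of the 5 arrays, for the 10 highest and the 10 lowest called clones. Circles are arrays with thoracic horn in Cy3 (A, C, E), squares those with it in Cy5 (B, D), and bars are the fitted ratios. The clones were chosen to have all 5 values on one side of 0, and E of OtL014-H05 (0.72) is the value nearest to it.

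The 5 arrays agreed in sign in 1358 of the 3384 tested clones that had all 5 values (40.1%). Among the 1283 called clones with 5 values, 1098 had the same sign on all 5 arrays (85.6%), 163 on 4, 21 on 3 and 1 on 2. At 2-fold or more the share was 337 of 351 clones (96.0%), and in 159 clones every single array was past 2-fold in the same direction. The calls rest on these same values, so high shares among called clones follow in part from the selection. The same sign on 5 arrays was no guarantee of a call: 260 such clones were not called, with a median absolute ratio of 0.29. The median SD over the 5 arrays was 0.34 in all clones with 5 values and 0.53 in the called clones of 2-fold or more. Within that size class it was 0.71 in the clones higher in thoracic horn and 0.47 in those lower.

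The tightest of the clones called at 2-fold or more was OtP015-A03, with 3.29, 3.32, 3.22, 3.08 and 3.16 on arrays A to E, an SD of 0.10. Its fit was 3.25 ± 0.15 (SE, limma adjusted p = 1.75e-08). OtL018-C01 had -0.98, -1.20, -1.23, -1.21 and -1.04, an SD of 0.11, so that its 5 values lay on both sides of a 2-fold difference while hardly differing. OtP006-D08, OtP017-C08 and OtP003-C01 followed with SDs of 0.14, 0.15 and 0.17 and fits of -1.23, -1.58 and -1.95.

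At the other end, 5 clones with SDs of 2.49 to 3.86 were called although their arrays disagreed. OtP002-H06 had 6.09, 0.02, 5.10, -2.76 and 5.04 on arrays A to E, high on the 3 Cy3 arrays and near or under 0 on the Cy5 arrays. Its layout term of 5.44 (limma adjusted p = 0.00113) was larger than its ratio of 2.15 ± 0.63 (SE, limma adjusted p = 0.0206). OtL002-F02 had 2.53, -2.15, 4.39, 2.23 and 3.26, with B alone below 0 and a layout term of 4.39. OtP011-F05 had -7.85, -1.15, -2.13, -0.70 and -0.94, and OtL003-B02 had -1.47, -0.24, -6.67, -0.59 and -0.76. One array lay far below the other 4 in each, A in OtP011-F05 and C in OtL003-B02. OtP017-H08 had -0.98, -0.24, -6.29, 1.31 and -4.58, and its fitted ratio of -1.90 took the other sign, 0.54, when only B and D were used. With the 5 thoracic horn arrays fitted alone, 4 of them were not called (limma adjusted p of 0.189 for OtP017-H08, 0.180 for OtP011-F05, 0.239 for OtL003-B02 and 0.135 for OtL002-F02), and OtP002-H06 stayed called. OtP002-H06 was not called without the layout term (0.166), nor in 5 of the 7 fits leaving out an array or letter that tested it (limma adjusted p of 0.0530 to 0.0695).

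Dye layout moved with the ratios of many clones. Over all clones, arrays of the same layout correlated at 0.60 to 0.69 (4 pairs) and arrays of opposite layout at 0.25 to 0.39 (6 pairs). The layout means had opposite signs in 1201 tested clones (32.2%). Among called clones they did in 26 (2.0%), and in 3 of those at 2-fold or more, though the calls themselves rest on both layouts. The layout term itself was called in 848 clones, or 22.8%, of which 303 were also called in thoracic horn. Of the 365 clones at 2-fold or more, 80 had a called layout term and in 16 that term was larger than the ratio. Each layout fitted on its own gave fewer calls with limma, 709 from A, C and E (301 higher, 408 lower) and 500 from B and D (199 higher, 301 lower). The number at 2-fold or more moved less, to 338 and 301.

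A shared ranking of the arrays was seen in the clones highest in thoracic horn. In 18 of the 140 clones with 5 values that were called at 2-fold or more higher (12.9%), the values fell in the order B, C, D, A, E. This order was looked for after several of the highest clones had shown it, and it is given with no test. It held in 13 of 48 clones at 4-fold or more higher (27.1%), in 3 of 495 clones higher by less than 2-fold, and in 0 of 211 clones at 2-fold or more lower. Over all 3384 clones with 5 values it held in 36 (1.06%). Of the 18 clones 15 had the prefix OtL, against 92 of all 145 clones called at 2-fold or more higher. The fits of the 18 clones ran from 1.0 to 3.48, and the gap between the B and E values ran from 0.77 to 4.19. Array B was also the highest array of the head horn set in 15 of the 18 clones and of the legs set in 17. The matching shares among other clones are not given here, so these counts cannot be read as particular to the 18 clones. On the thoracic horn arrays, B also had the highest mean (2.33) over all 140 clones. Clones of 1 transcript would share a ranking, so the 18 clones need not be 18 transcripts. Whether the animals behind the letters, the amplification or the hybridisation set this ranking was not tested.

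**Figure D3:**
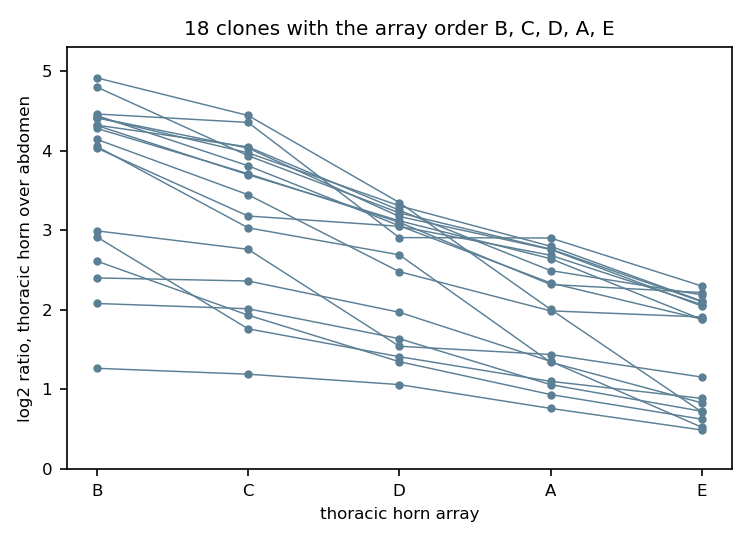
Log2 ratio of thoracic horn over abdominal epithelium on the 5 arrays, placed in the order B, C, D, A, E, for the 18 clones called at 2-fold or more higher whose values fall in that order. Each line is a clone, and the gaps between B and E run from 0.77 to 4.19.

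Few clones were called as different between thoracic horn and head horn in the main fit. All 15 arrays share the abdominal reference tissue, so the difference between appendages was tested directly as thoracic horn minus head horn in the same limma fit. It was called in 33 clones (0.886%), of which 19 were higher in thoracic horn (0.51%) and 14 lower (0.376%), and 25 differed by 2-fold or more. At an unadjusted p under 0.05 there were 331 clones, against 531 once the letter was a random block. Arrays of the same letter moved together in all 3 tissues, and that block fit called 100 clones (2.68%), which included all 33. In 6 of the 33 clones the thoracic horn ratio alone was called against abdomen, in 11 the head horn ratio alone, in 4 both with opposite signs, and in 12 both with the same sign. In all of these 12 the thoracic horn ratio was the nearer to 0. The count of 33 depended on single arrays: it was 20 without thoracic horn array D and 19 without E, and 15, 14 and 9 without letters A, C and D in all tissues.

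The clones most above head horn were OtL014-H10 and OtP012-E12, described below, followed by OtL008-B01, OtP020-G02 and OtL004-B04. These last 3 were below abdomen in head horn, by more than in thoracic horn. OtL008-B01 had -0.91, -0.07, -0.06, -0.38 and -1.02 on the thoracic horn arrays A to E, against -2.19, -1.93, -2.63, -1.98 and -2.35 on the head horn arrays. The groups did not overlap, and the difference was 1.73 ± 0.20 (SE, limma adjusted p = 0.00128). Its thoracic horn ratio of -0.44 was called in the main fit (limma adjusted p = 0.0298) and not with the letter as a block (0.0708). OtP020-G02 had a thoracic horn ratio of -1.32 and a head horn ratio of -2.96, a difference of 1.64 (limma adjusted p = 0.0140) that was not called in 2 of its 10 fits leaving out an array or letter, nor without the layout term (0.0973). OtL004-B04 had ratios of -0.43 in thoracic horn, not called against abdomen (limma adjusted p = 0.142), and -1.87 in head horn, a difference of 1.44 (limma adjusted p = 0.0443). That difference was not called in 8 of 10 such fits (limma adjusted p of 0.0884 to 0.207), nor without the layout term (0.0666), with centred arrays (0.0508) or with array weights (0.0510).

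Among the 5 clones most below head horn were OtP007-C08, described below, and 3 that were called higher than abdomen in head horn and were not called in thoracic horn. OtL016-A04 had 0.28, 1.17, -1.34, 0.39 and 0.27 on the thoracic horn arrays A to E, against 2.94, 3.48, 0.50, 2.90 and 2.85 on the head horn arrays. The C array was the lowest in both tissues, the head horn value on it overlapped the thoracic horn values, and each of the 5 same-letter differences lay between -2.66 and -1.84. The fitted difference was -2.38 ± 0.51 (SE, limma adjusted p = 0.0443). It was not called in 9 of 10 fits leaving out an array or letter (limma adjusted p of 0.0630 to 0.193), nor without the layout term (0.162) or in a robust fit (0.0520). None of these fits paired the arrays by letter, and with the letter as a block the difference was called. OtL009-C06 had ratios of 0.49 in thoracic horn and 2.82 in head horn, a difference of -2.33 (limma adjusted p = 0.0298) that was not called in 6 of 10 such fits (0.0720 to 0.143), nor without the layout term (0.104). OtL017-A04 had 0.28, -0.01, 0.40, -0.15 and 0.23 in thoracic horn, against 1.28, 1.39, 1.58, 1.45 and 2.06 in head horn, with no overlap and a difference of -1.40 ± 0.16 (SE, limma adjusted p = 0.00128). OtP020-G07 had opposite signs in the horns, -0.75 in thoracic horn and 0.64 in head horn, both called (limma adjusted p of 9.86e-04 and 0.00250). Its difference of -1.39 (limma adjusted p = 0.00378) was not called in 1 of 10 such fits (0.0553), nor without the layout term (0.0519).

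Thoracic horn and legs differed in 424 clones (11.4%), of which 205 were higher in thoracic horn (5.5%) and 219 lower (5.88%), and 153 differed by 2-fold or more. At an unadjusted p under 0.05 there were 1042 clones, and the block fit called 952 (25.6%), which included all 424. In 206 of the 424 clones the legs ratio alone was called against abdomen, and in 97 the thoracic horn ratio alone. Both were called with the same sign in 86 clones, in 73 of which thoracic horn was the nearer to abdomen, and with opposite signs in 28. The remaining 7 were called in neither. The count was 282 without thoracic horn array C and 247 without E, and it was 217, 170, 215 and 243 without letters A, C, D and E in all tissues.

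Above legs, OtL014-H10 and OtP012-E12 again led. OtP011-E02, described above at 3.54 to 4.13 in thoracic horn, had -1.21, 1.31, 0.55, 0.27 and 0.46 on the legs arrays A to E, and the groups were far apart (difference 3.54 ± 0.41, SE, limma adjusted p = 2.02e-04). Its head horn ratio was 3.68, so the clone was high in both horns. OtL002-E05 was likewise high in both horns, with ratios of 3.98 in thoracic horn and 3.52 in head horn, against 1.03 in legs. OtL019-G12 was near abdomen in thoracic horn (-0.08) and low in legs (-2.68), a difference of 2.61 (limma adjusted p = 6.77e-04). The tightest clone, OtP015-A03, had ratios of 3.25 in thoracic horn and 3.56 in head horn, against 0.67 in legs.

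The 5 clones furthest below legs were all far above abdomen in legs. OtP013-D01, OtP013-D04, OtL003-A11, OtP014-A08 and OtP005-A01 had legs ratios between 3.53 and 4.09. None of the 5 was called in thoracic horn, where their fitted ratios lay between -0.73 and 0.09. OtP013-D04, for example, had 0.23, -0.84, -0.38, 0.09 and -1.89 on the thoracic horn arrays A to E, against 3.25, 4.76, 3.55, 3.81 and 4.57 on the legs arrays (difference -4.55 ± 0.68, SE, limma adjusted p = 0.00147). The difference of OtP014-A08 was not called in 2 fits leaving out an array or letter (limma adjusted p of 0.0509 and 0.0601).

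**Figure D4:**
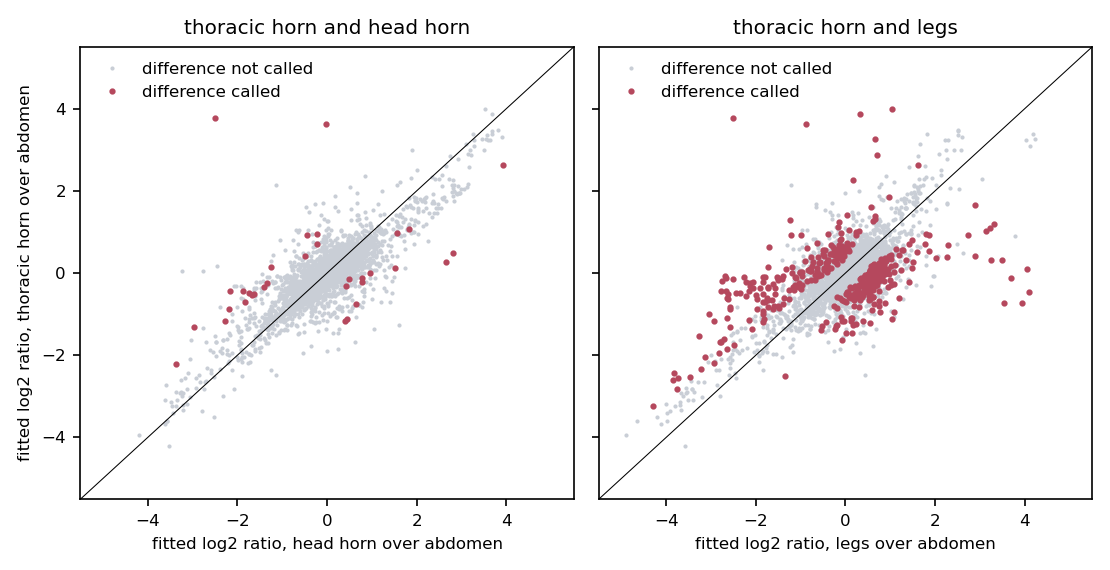
Fitted log2 ratios over abdominal epithelium of thoracic horn against those of head horn and of legs, one point per tested clone. Coloured points are clones whose difference between the tissues was called, 33 for head horn and 424 for legs, and the line marks equal ratios. All ratios share the abdominal reference tissue.

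Against abdomen, 1408 clones were called in head horn (37.8%) and 1516 in legs (40.7%). Of the 1298 clones called in thoracic horn, 213 (16.4%) were called in neither head horn nor legs, 120 of them higher and 93 lower in thoracic horn, with a median absolute ratio of 0.48. A missed call is not a difference. Among these 213 clones the tested difference was called against head horn in 4, against legs in 38 and against both in 3. With the letter as a block these numbers were 9, 98 and 8. Among the 365 clones called at 2-fold or more, the difference was called in 9 against head horn and in 68 against legs. The 95% interval of the difference lay within 2-fold for 159 of the 365 clones against head horn (43.6%) and for 99 against legs (27.1%). For the others the arrays did not set so narrow a limit.

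The part of the profile not seen in head horn or legs came to 7 clones (0.188%), by requiring a call against abdomen and a called difference from both other appendages in the same direction. There were 5 above and 2 below. OtL014-H10, OtP012-E12, OtL003-G11, OtL016-G11 and OtP012-D08 were higher, OtP007-C08 and OtP006-C05 lower. In the block fit there were 14 clones (0.376%), of which 6 were among the 7. OtP012-D08 dropped out, its thoracic horn ratio having an adjusted p of 0.0561 by limma with the block. Another 10 fits, made without the block, left out a thoracic horn array or a letter. In these OtL014-H10, OtP012-E12 and OtP007-C08 met the definition in 10 of 10, OtL003-G11 and OtP006-C05 in 3, and OtL016-G11 and OtP012-D08 in 2. The number of such clones was 3 without thoracic horn array A and 4 without letter A, C, D or E.

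OtL014-H10 showed the widest contrast. Its ratios of 2.71, 4.49, 3.63, 4.48 and 2.40 on the thoracic horn arrays A to E stood against -5.67, 0.10, -3.80, -1.78 and -2.50 on the head horn arrays and -2.86, -1.42, -5.68, -1.56 and -2.18 on the legs arrays. The thoracic horn values did not overlap with either set. The clone was called on opposite sides of abdomen, with a fit of 3.77 in thoracic horn, against -2.50 in head horn and -2.51 in legs. The difference was 6.27 ± 0.70 from head horn (SE, 77.2-fold, 95% interval 4.75 to 7.79, limma adjusted p = 0.00128) and 6.28 ± 0.70 from legs (SE, 77.7-fold, limma adjusted p = 1.84e-04). The negative values in head horn and legs were spread widely, with SDs of 2.16 and 1.74 (n = 5 each).

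OtP012-E12 was high in thoracic horn alone. It had 4.02, 3.50, 3.14, 3.61 and 3.34 on the thoracic horn arrays, against -0.05, 0.54, -2.28, 1.18 and 0.03 on the head horn arrays and -1.15, -0.15, -2.56, -0.35 and -0.66 on the legs arrays. The nearest head horn value, on array D, was still well under the lowest thoracic horn value. The difference was 3.63 ± 0.49 from head horn (SE, 12.4-fold, limma adjusted p = 0.00332) and 4.50 ± 0.49 from legs (SE, 22.6-fold, limma adjusted p = 1.39e-04). Its ratios in head horn (-0.02) and legs (-0.88) were not called.

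OtP007-C08 was low in thoracic horn alone, with -1.11, -1.44, -1.08, -1.46 and -0.35 on arrays A to E. Head horn had 0.47, -0.20, 1.24, -0.01 and 0.81 and legs had -0.15, -0.10, 0.54, -0.10 and 0.73. Array E, the nearest to 0 in thoracic horn, was still below every head horn and legs value. The difference was -1.55 ± 0.21 from head horn (SE, limma adjusted p = 0.00339) and -1.27 ± 0.21 from legs (SE, limma adjusted p = 0.00288).

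The other 4 clones differed less. OtL003-G11 had 1.10, 1.08, 0.51, 0.30 and 1.65 on the thoracic horn arrays A to E, with head horn between -0.78 and 0.09 and legs between -1.33 and -0.42, and its differences were 1.38 from head horn and 1.91 from legs. OtL016-G11 had 1.25, 1.03, 0.21, 0.90 and 1.37, against -0.73 to 0.20 in head horn and -0.58 to 0.03 in legs, with differences of 1.17 and 1.34. In both clones no value overlapped, though the lowest thoracic horn value came close to the highest head horn value, as in OtP007-C08 from the other side. OtP012-D08 and OtP006-C05 had thoracic horn ratios of 0.40 and -0.31, under 1.5-fold, and their calls against abdomen were close to the threshold (limma adjusted p of 0.0237 and 0.0197). Their differences were larger, 0.90 from head horn and 0.88 from legs in OtP012-D08, and -0.73 and -0.94 in OtP006-C05. In all 7 distinct clones both differences were larger than the thoracic horn ratio. Head horn and legs therefore had fitted ratios of the other sign, and part of each difference lay in those tissues.

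**Figure D5:**
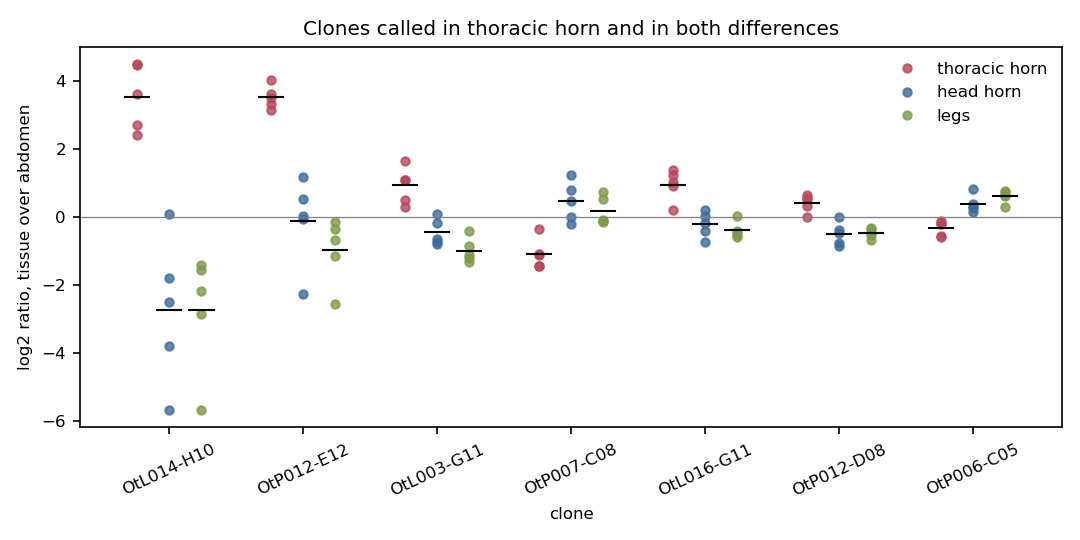
Log2 ratio over abdominal epithelium on each array for the 7 clones whose thoracic horn ratio differed from abdomen and, in the same direction, from head horn and legs. Groups run from thoracic horn to head horn to legs, points are arrays and bars are group means. The thoracic horn values of OtL014-H10 and OtP012-E12 lie far from both other tissues, while the gap is narrow in the other clones and closed in OtP012-D08 against head horn.

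In all, 29 of the 1298 clones called in thoracic horn, OtL014-H10 among them, were called with the other sign in head horn (4) or legs (28), 3 of them in both. In each the tested difference between those tissues was called, which follows largely from choosing called ratios of opposite sign. With the letter as a block, 3 clones had called ratios of opposite sign in thoracic horn and head horn, and 25 in thoracic horn and legs. After OtL014-H10 the largest difference was that of OtL001-G02, with 1.61, 0.81, 0.72, 0.67 and 2.79 in thoracic horn, against -1.34, -1.03, -2.00, -1.11 and -0.61 in legs (difference 2.54 ± 0.46, SE, limma adjusted p = 0.00484). OtL001-F09 had ratios of 0.92 in thoracic horn and -1.21 in legs, and its head horn ratio of 0.36 was not called. In the other direction, OtP019-E06 had -1.25, -0.56, -1.63, -0.50 and -1.04 in thoracic horn, against 1.56, 0.75, 0.63, 1.49 and 0.73 in legs (difference -2.03 ± 0.25, SE, limma adjusted p = 3.78e-04). OtP019-C10 had ratios of -0.91 in thoracic horn and 0.60 in legs. OtL009-G05 and OtP003-H01 were higher in both horns (0.61 and 0.74 in thoracic horn, 0.67 and 0.78 in head horn) and lower in legs (-0.86 and -0.64), while OtP003-H08 and OtP004-A10 were lower in both horns (-0.72 and -0.68 in thoracic horn, -1.18 and -0.80 in head horn) and higher in legs (0.88 and 0.74). Against abdomen in thoracic horn, OtP003-H08 was not called in 4 fits leaving out an array or letter, and OtP003-H01 was not called in 1 such fit or from the thoracic horn arrays alone (limma adjusted p = 0.0719). Among other clones of the opposite sign in legs, OtP020-A03 was not called in thoracic horn in 9 of 10 such fits. OtP017-A12 was not called there in 6, and OtP015-D06 and OtL003-B12 in 5 each.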

How the data were processed

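Labelled RNA was hybridised to spotted two-colour arrays, and the deposited table holds 1 normalized log ratio per clone and array, a deposited value read here as log2. Limma is named for it, per the submitters' processing notes. The sources used here do not give its version, the background correction, the normalization, the filter behind empty cells, the log base or the sign. The 5 thoracic horn arrays had 43 to 321 empty cells. Signal intensities were not used here, so the precision is limited by the number of arrays. No array's sign was turned for its dyes, since arrays of opposite layout correlated above 0.

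The 3725 clones with values on at least 3 arrays and both layouts in every tissue (115 were left out) were fitted on all 15 arrays by lmFit and eBayes of limma 3.58.1 (R 4.3.3). The model had a coefficient per tissue and 1 dye layout term (Cy3 minus Cy5), and p-values were adjusted over all tested clones by Benjamini-Hochberg. The fit was also run on simulated data, in which arrays varied independently and only thoracic horn ratios were changed. That run could not show how same-letter arrays that move together affect the calls. Same-letter arrays deviated together from their tissue means in every pair (15 pairs, r of 0.35 to 0.65, and 0.22 to 0.43 within a layout), so the letter was also fitted as a random block (correlation 0.395). Shared animals are stated for the 2 samples of an array only. Alternatives were the block, no layout term, centred arrays, complete clones, no filter, thoracic horn arrays alone, array weights, a robust fit, each layout alone and leaving out arrays or letters. All but the block fit left aside that same-letter arrays moved together.

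Named clones were the 10 highest and 10 lowest called ratios with 5 arrays of the same sign, the 5 highest and 5 lowest called differences from head horn and from legs with 5 same-letter differences of the same sign, every clone distinct from both, up to 15 clones of opposite sign, the 5 smallest and 5 largest SDs among clones called at 2-fold or more, and the 3 clones most correlated with each of the 2 most distinct. Clones and rules were chosen with earlier results of these data known. Planned gene lists could not be applied without gene names. Figures were drawn with matplotlib 3.10.9.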

Additional observations from a re-analysis of the deposited data

Results flagged for a closer look

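In 63 tests for a sample far from the others of its group, 5 were found, and chance gives about 1 in 20. Most tests were on named clones, some of them chosen by their spread over arrays, so the number found cannot be weighed against chance. Thoracic horn array D had 321 empty values, against 43 to 120 on the other arrays. Single arrays stood apart in OtP003-H01 (1.71 on E), OtP003-C01 (-1.63 on E), OtP011-F05 (-7.85 on A) and OtL003-B02 (-6.67 on C). OtP011-F05 and OtL003-B02 had been chosen for a large spread, and OtP003-C01 for a small one (SD 0.17), so its gap was small.

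In the named clones 41 differences between appendages were called by limma. Thoracic horn minus head horn was 6.27 in OtL014-H10, 3.63 in OtP012-E12, 1.73 in OtL008-B01, 1.64 in OtP020-G02, 1.44 in OtL004-B04, 1.38 in OtL003-G11, 1.17 in OtL016-G11 and 0.90 in OtP012-D08. It was -2.38 in OtL016-A04, -2.33 in OtL009-C06, -1.55 in OtP007-C08, -1.40 in OtL017-A04, -1.39 in OtP020-G07 and -0.73 in OtP006-C05.

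Thoracic horn minus legs was 6.28 in OtL014-H10, 4.50 in OtP012-E12, 3.54 in OtP011-E02, 2.95 in OtL002-E05, 2.61 in OtL019-G12, 2.54 in OtL001-G02, 2.13 in OtL001-F09, 1.91 in OtL003-G11, 1.47 in OtL009-G05, 1.38 in OtP003-H01, 1.34 in OtL016-G11 and 0.88 in OtP012-D08. Among clones lower in thoracic horn it was -4.65 in OtP013-D01, -4.55 in OtP013-D04, -4.25 in OtL003-A11, -3.96 in OtP014-A08 and -3.81 in OtP005-A01. Smaller negative differences were -2.03 in OtP019-E06, -1.61 in OtP003-H08, -1.56 in OtP017-A12, -1.50 in OtP019-C10, -1.42 in OtP004-A10, -1.38 in OtP015-D06, -1.27 in OtP007-C08, -1.19 in OtP020-A03, -1.19 in OtL003-B12 and -0.94 in OtP006-C05.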

How the results depend on the processing

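Clones called at 2-fold or more numbered 365 and lay between 301 and 380 under all alternatives. The letter as a replicate block gave 1254 calls against abdomen, 100 against head horn (531 at an unadjusted p under 0.05, against 331), 952 against legs and 14 distinct clones. Without the layout term the differences fell to 19 against head horn and 219 against legs. Thoracic horn arrays alone gave 827 calls, 368 of them higher. Arrays A, C and E alone gave 709 calls (301 higher, 408 lower), and B and D alone gave 500 (199 higher, 301 lower). Against head horn both layouts gave 0 limma calls and 0 distinct clones, with 190 (A, C, E) and 158 (B, D) clones at an unadjusted p under 0.05. Against legs they gave 36 and 0 calls, with 674 and 325 clones unadjusted. These fits hold fewer arrays. Leaving out an array or a letter gave 9 to 24 calls against head horn, 170 to 322 against legs and 3 to 6 distinct clones. OtP017-H08 changed sign on B and D alone (0.54), and the cause was not tested. Of 1722 recomputed values of 60 named clones, 1470 kept direction and call, 251 kept direction only and 1 reversed. The other counts of adjusted calls stayed within 1.5 times their value, also with centred arrays, weights, a robust fit, complete clones and no filter.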

Other observations

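OtL clones were called in thoracic horn more often than OtP clones, in 736 of 1885 (39.0%) and 562 of 1840 (30.5%). By the plate number in the clone ID, the share ran from 27.6% to 49.0% over the 20 OtL plates (median 39.5%) and from 20% to 37.6% over the 20 OtP plates (median 31.4%). What the prefixes stand for is not given in the sources used here.

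Over the 15 arrays, the clones most like OtL014-H10 were OtL008-B01 (Pearson r = 0.93), OtL014-D06 (0.91) and OtP012-E12 (0.91), and those most like OtP012-E12 were OtL008-B01 (0.94), OtL005-F02 (0.92) and OtL014-H10 (0.91). The points share the abdominal reference and their dye layouts. OtL008-B01 and OtL014-D06 had fitted ratios below abdomen, of -0.44 and -0.53 in thoracic horn, -2.18 and -1.66 in head horn and -2.65 and -2.00 in legs. In thoracic horn OtL008-B01 was not called with the letter as a block (limma adjusted p = 0.0708).

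One clone outside the filter had a larger positive ratio than any tested clone, and it was chosen after its values were seen. OtP008-D05 had 3.83, 3.46, 3.98, 6.14 and 3.88 on thoracic horn arrays A to E, with D the highest. Head horn had values on 4 arrays and legs on 3. With no filter its fit was 4.46 ± 0.47 (SE, 22.0-fold, limma adjusted p = 5.04e-05), and its differences from head horn (1.67) and legs (0.48) were not called (limma adjusted p of 0.533 and 0.742).

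Thoracic horn minus the mean of head horn and legs, a contrast added after 7 distinct clones had been seen, was called by limma in 100 clones (2.68%), 72 higher and 28 lower in thoracic horn. With the letter as a block it was called in 367. The 8 clones distinct only with the block were OtP015-E07, OtP006-G07, OtP009-D04, OtL007-B07, OtL020-E11 and OtP002-H06, higher in thoracic horn, and OtP012-G12 and OtP019-G10, lower. OtP002-H06 was the clone described above whose thoracic horn arrays disagreed and whose layout term was larger than its ratio. OtL007-B07 had 1.45, 0.98, 1.37, 1.55 and 1.17 in thoracic horn, against 0.77, 0.69, 0.62, 0.69 and 0.78 in head horn and 0.89, 0.67, 0.03, 0.91 and 0.76 in legs, with no overlap. OtP012-G12 had a ratio of -1.28 in thoracic horn, against -0.66 in head horn and -0.52 in legs.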
